A study of Danio rerio with 4 samples.

Results

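The mesoderm T-box genes ntla, ntlb, tbx16, tbx6 and tbx24, together with msgn1, were examined at sphere stage in zebrafish embryos with and without Eomesodermin a (Eomesa). The members were chosen by name, and 5 of the 6 names have a row in a table of 32468 genes. The name tbx24 has none. RefSeq gives tbx24 as a synonym of the chromosome 12 gene that the table calls tbx6, and the gene for which RefSeq keeps tbx6 as an older name is the chromosome 5 row tbx6l. Both are described, so that neither use of the name is missed.

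Poly(A) RNA was sequenced from whole embryos at sphere stage, a blastula stage before gastrulation. MZeomesa embryos carried the eomesafh105 allele and were bred from parents that were both homozygous mutants, so that maternal and zygotic Eomesa were lacking. In some experiments of the study, which were not specified, embryos lacking only the maternal product stood in for them. The controls were wild-type embryos of the AB strain, the strain that the labels also give for the mutants. There were 2 samples in each group, and the deposited table combines them into 1 FPKM value per gene and group (fragments per kilobase of exon, scaled to mapped reads). No value per sample was used, so none of the values below has a replicate error and no difference was tested. The read depth is unknown.

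T-box genes encode transcription factors that share a DNA-binding domain, the T-box. Several of them act in sequence and in overlap in vertebrate mesoderm: Eomesodermin works with Nodal signalling when mesoderm and endoderm are first specified, Brachyury proteins maintain the notochord and the tail, and Tbx16 and Tbx6 proteins act in the paraxial mesoderm that forms somites. Because these proteins recognise similar DNA sequences, the comparison asks whether T-box genes other than eomesa were expressed at another level in embryos without Eomesa.

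The targeted gene was measured first. eomesa (ENSDARG00000006640, chromosome 19, 839728 to 853794 of the Zv9 assembly) had 1.52 FPKM in MZeomesa embryos and 62.6 FPKM in wild-type embryos. Its log2 ratio of MZeomesa to wild-type was -5.36, the lowest among the 6580 genes with a mean of 10 to 100 FPKM over both groups.

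tbx16 was the most abundant T-box transcript in MZeomesa embryos, and ntla the second most abundant of the members, and both were higher there than in wild-type embryos. tbx16 (spadetail; ENSDARG00000007329, chromosome 8, 54012018 to 54031716) is needed for trunk mesoderm cells to move towards the somites. It had 88.7 FPKM in MZeomesa embryos and 61.1 FPKM in wild-type embryos, a difference of 27.6 FPKM and a ratio of 1.45 (log2 ratio 0.54). ntla (no tail a, a zebrafish Brachyury gene; ENSDARG00000009905, chromosome 19, 30633856 to 30637909) is needed for notochord and tail. It had 18.5 FPKM in MZeomesa embryos and 10.6 FPKM in wild-type embryos, a difference of 7.95 FPKM and a ratio of 1.75 (log2 ratio 0.81). For a later stage, the paper cites RT-PCR that found less ntla RNA in MZeomesa embryos, with some recovery by shield stage. Its own in situ hybridisation at that later stage found ntla only mildly affected. Stage and method both differ from those here. In whole embryos, a larger share of cells that express a gene and more of its RNA in each cell cannot be told apart.

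Neither ratio reached 2-fold. Among the 14921 genes averaging at least 1 FPKM over both groups and listed above 0 in each, 1372 (9.2%) differed by at least 2-fold, 805 of them (5.4%) being higher and 567 (3.8%) lower in MZeomesa embryos. Of the 2 members that reach this minimum level, 0 passed 2-fold and 1, ntla, passed 1.5-fold, which 12.2% of all these genes did in the same direction. Ratios were narrower among abundant genes. In the group of genes with a mean of 10 to 100 FPKM, which holds both tbx16 and ntla, the median log2 ratio was -0.04 and the central 90% of genes lay between -0.65 and 0.73. The log2 ratio of tbx16 was inside that range and that of ntla above it. A ratio as high as that of ntla or higher was found in 4.15% of these genes, and one as high as that of tbx16 or higher in 7.90%, while 2.63% were at least 2-fold higher in MZeomesa embryos and 1.57% at least 2-fold lower. These percentages place the genes among others of their level and are not a test.

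**Figure D1:**
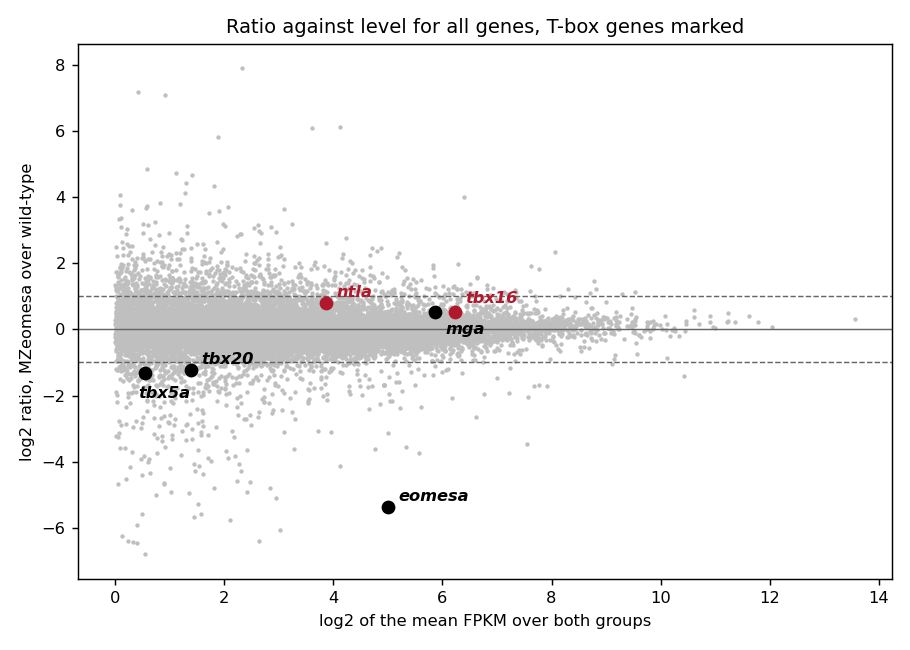
The log2 ratio of MZeomesa to wild-type (vertical axis) is plotted against the log2 of the mean FPKM over both groups (horizontal axis) for 14921 genes (grey points), with the T-box members in red, other T-box genes in black and dashed lines at 2-fold. tbx16 and ntla lie above 0 but below the upper dashed line, at log2 ratios of 0.54 and 0.81, and eomesa lies at -5.36.

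The order of the levels also differed between the groups. In MZeomesa embryos the order ran tbx16, mga, ntla, tbx20, eomesa, whereas in wild-type embryos eomesa and tbx16 headed it nearly level, at 62.6 and 61.1 FPKM, followed by mga, ntla and tbx20. Which neighbours in these orders differ beyond the spread of the samples could not be tested. There was 58.3 times as much tbx16 as eomesa RNA per length in MZeomesa embryos, against 0.976 times as much in wild-type embryos. The ratio of tbx16 to ntla moved far less, being 4.79 in MZeomesa and 5.78 in wild-type embryos. tbx16 ranked 1224th of all genes in MZeomesa embryos and 1903rd in wild-type embryos, and ntla ranked 5382nd in MZeomesa embryos and 7462nd in wild-type embryos.

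For ntla and tbx16, the study lists predicted binding sites of Foxh1, a partner of Smad2 in Nodal signalling. They lie in genomic regions bound by Smad2 that the study assigned to these genes. Each is a match to a known Foxh1 motif, not a measured site of binding. The sites are shown as DNA from regions near both genes that were occupied by Smad2, the transducer of Nodal signals. They are given in the letters of the study's list, which states neither strand nor position within the region, and capitals mark a run of AAT, any 2 letters and ACA. Of 375 predicted Foxh1 sites listed for Smad2 regions, 281 (74.9%) hold this run in the listed orientation. Since the sites were picked by their match to the motif, likeness among them follows from how they were picked. The first tbx16 site is also listed for the narrower region that Smad2 shares with Eomesa. The paper names ntla, too, among genes with Eomesa and Smad2 bound nearby, so these sites do not show which genes Eomesa bound.
ntla site, chromosome 19: ctcAATCCACA
tbx16 site 1, chromosome 8: ctgAATACACA
tbx16 site 2, chromosome 8: cacAATCCACA
The sites of ntla and the second of tbx16 hold the same capital letters. Whether Foxh1 bound any of them is not known from the study, which reports that its attempts to map Foxh1 binding did not succeed.

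The remaining members were at the lower end of the scale in both groups, under 1 FPKM. msgn1 (ENSDARG00000070546, chromosome 4, 16557 to 17644), a basic helix-loop-helix factor that drives maturation of presomitic mesoderm together with Tbx16, had 0.656 FPKM in MZeomesa embryos and 0.367 FPKM in wild-type embryos, a log2 ratio of 0.84. Its ratio was close to that of ntla, and the level of ntla over that of msgn1 was 28.2 in MZeomesa and 28.8 in wild-type embryos. At such low levels ratios spread widely: among 5788 genes with a mean of 0.1 to 1 FPKM the central 90% ran from -1.88 to 2.02, and 23.4% had a ratio as high as that of msgn1 or higher. A ratio like that of msgn1 was common among genes of its level.

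tbx6 (ENSDARG00000011785, chromosome 12, 4593056 to 4603583), which under the name tbx24 is known for the fused somites mutant and acts in segmentation, had 0.132 FPKM in MZeomesa embryos and 0.185 FPKM in wild-type embryos. tbx6l (ENSDARG00000006939, chromosome 5, 43898953 to 43915915), which is expressed in ventral and paraxial mesoderm of the gastrula, had 0.178 FPKM in MZeomesa embryos and 0.388 FPKM in wild-type embryos. Both were lower in MZeomesa embryos, with log2 ratios of -0.49 and -1.12. Of the genes at this level, 24.1% had a ratio as low as that of tbx6 or lower and 11.6% one as low as that of tbx6l or lower. ntlb (ENSDARG00000039806, chromosome 13, 4095613 to 4108100), the other zebrafish Brachyury gene, had 0.0409 FPKM in MZeomesa embryos and 0.0210 FPKM in wild-type embryos. Its listed span overlaps that of another gene, its level is very low and it is marked as not tested by the authors, so its value is uncertain. There was 452 times as much ntla as ntlb in MZeomesa embryos and 502 times as much in wild-type embryos, so the RNA of the Brachyury pair was almost wholly that of ntla in either group.

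**Figure D2:**
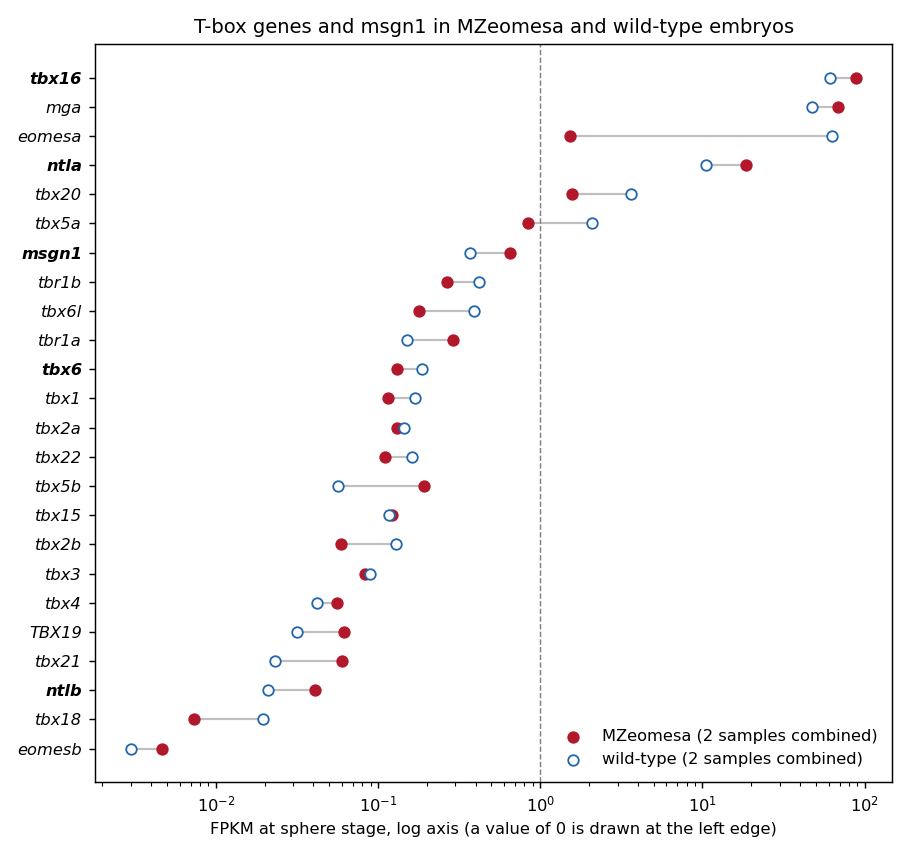
FPKM at sphere stage (horizontal log axis) is shown for 23 T-box genes and msgn1, with a filled red point for MZeomesa and an open blue point for wild-type embryos, each the authors' value over 2 samples; members with a row are in bold, the dashed line marks 1 FPKM, and the listed 0 of eomesb in wild-type embryos is drawn at the left edge. Only tbx16, mga, eomesa and ntla reached 10 FPKM in either group, and eomesa alone of these was lower in MZeomesa embryos.

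The table names 23 T-box genes, eomesa included. In MZeomesa embryos 3 of them had at least 10 FPKM, 2 had 1 to 10 FPKM and 18 had less than 1 FPKM. In wild-type embryos these numbers were 4, 2 and 17. Besides tbx16 and ntla, the abundant one was mga (ENSDARG00000078784, chromosome 17, 10011286 to 10034868), which encodes a partner of Max with both a T-box and a helix-loop-helix domain. It had 68.7 FPKM in MZeomesa embryos and 47.5 FPKM in wild-type embryos, a difference of 21.1 FPKM and a log2 ratio of 0.53, near that of tbx16, and its span also overlaps that of another gene. A pair of heart T-box genes was lower in MZeomesa embryos. tbx20 (ENSDARG00000005150, chromosome 16) had 1.56 FPKM in MZeomesa and 3.64 FPKM in wild-type embryos (log2 ratio -1.22). tbx5a (ENSDARG00000024894, chromosome 5) had 0.837 FPKM in MZeomesa and 2.08 FPKM in wild-type embryos (log2 ratio -1.32). Of the 7322 genes with a mean of 1 to 10 FPKM, 6.19% were at least 2-fold lower in MZeomesa embryos.

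Among the 6 T-box genes averaging at least 1 FPKM, 0 were at least 2-fold higher in MZeomesa embryos, 3 (eomesa, tbx20 and tbx5a) were at least 2-fold lower and 3 lay in between. Over all 14921 genes the shares were 5.4% higher and 3.8% lower. Without eomesa, the mutated gene, 2 of 5 T-box genes were at least 2-fold lower, and tbx5a reached the minimum mean through wild-type embryos alone. With a pseudocount of 1 FPKM, eomesa was the 1 gene of the 6 at least 2-fold lower. The median log2 ratio of these T-box genes without eomesa was 0.53, the value of mga, beside -0.01 over all 14921 genes. The 5 genes did not share a direction, as their log2 ratios ran from -1.32 to 0.81, with 3 of them above 0. Another 17 T-box genes were under 1 FPKM in both groups, 8 of them higher and 9 lower in MZeomesa embryos. Of all genes with a mean of 0.1 to 1 FPKM, 58.2% had a ratio above 1, though some of the 17 lie below that level. The largest value among the 17 was 0.292 FPKM in MZeomesa and 0.420 FPKM in wild-type embryos. The 17 include eomesb, the second Eomesodermin gene, with 0.00469 FPKM in MZeomesa embryos and a listed value of 0 in wild-type embryos. A listed 0 can be a failed estimate in this table, since the mitochondrial gene mt-co1 is also listed at 0 in wild-type embryos. eomesb, however, is not among the estimates marked as failed, low data or too much data, though it is marked as not tested by the authors. The paper reports that it detected no eomesb expression in either genotype.

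Because FPKM is scaled to transcript length, levels of different genes can be added. The summed level of all 23 T-box genes was 182 FPKM in MZeomesa embryos and 190 FPKM in wild-type embryos, a ratio of 0.958, although the contribution of eomesa was 0.837% in MZeomesa embryos and 33.0% in wild-type embryos. Without eomesa the sum was 180.2 FPKM in MZeomesa embryos and 127 FPKM in wild-type embryos, which is 53.1 FPKM more in MZeomesa embryos and compares with 61.1 FPKM less eomesa RNA. The excess was made up by 3 genes, tbx16 with 27.6, mga with 21.1 and ntla with 7.95 FPKM, whereas the other 19 T-box genes summed to 4.32 FPKM in MZeomesa and 7.87 FPKM in wild-type embryos. tbx16 and ntla together made up 59.0% of all T-box RNA in MZeomesa embryos and 37.8% in wild-type embryos. Some T-box genes, mga among them, are listed with the same span as another gene. Leaving these out, the sum without eomesa was 111 FPKM in MZeomesa and 79.5 FPKM in wild-type embryos. The ratio was then 1.40, beside 1.42 with them. The excess was 32.0 FPKM rather than 53.1 FPKM, and so further from the 61.1 FPKM by which eomesa was lower. These are sums of RNA over whole embryos, and they hold no information on protein or on which cells expressed the genes.

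**Figure D3:**
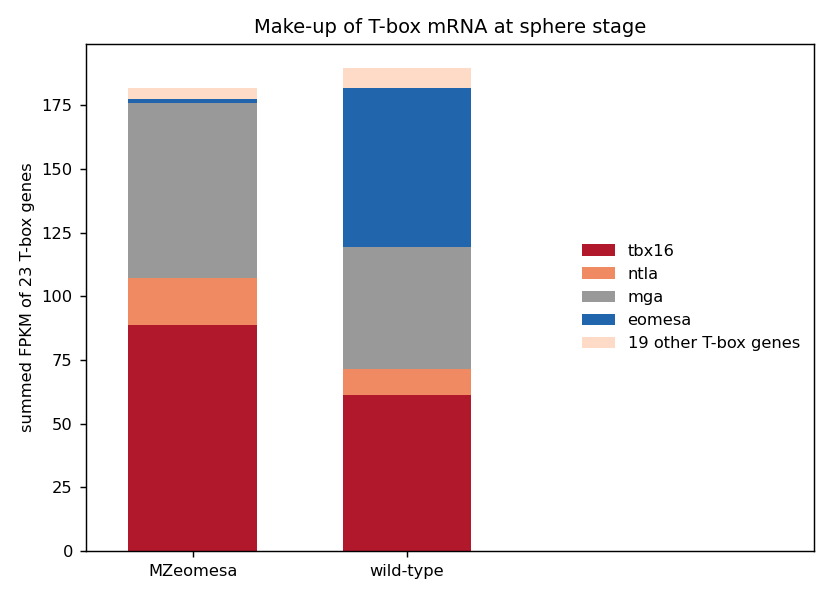
The FPKM values of 23 T-box genes are stacked for MZeomesa embryos (left bar) and wild-type embryos (right bar), with a colour for each of the 4 abundant genes and 1 for the other 19. The bars end at 182 and 190 FPKM, while eomesa takes up 0.837% of the left bar and 33.0% of the right bar.

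Both genes can be set beside the other genes of the early mesoderm. Lists of such genes held 73 names and gave 65 rows, wnt8a and foxa having 2 rows each and some names none. Of these rows, 32 average at least 1 FPKM. Of the 32, 3 were at least 2-fold higher in MZeomesa embryos (9.38%, beside 5.4% of all genes), 5 were at least 2-fold lower (15.6%, beside 3.8%) and 24 lay in between, with a median log2 ratio of -0.13. Both rows of wnt8a are among the 5 and are marked as failed estimates, and without them 3 rows were at least 2-fold lower. The mesoderm genes therefore did not share a direction, and 13 of the 32 rows had a ratio above 1, beside 48.9% of all 14921 genes.

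Among 12 rows of mesoderm inducing signals averaging at least 1 FPKM, 1 was at least 2-fold higher and 3 were at least 2-fold lower in MZeomesa embryos (median log2 ratio -0.19). For this list and those below, the shares over all 14921 genes were 5.4% higher and 3.8% lower. Lists of 12 rows or fewer are too short for a close comparison with these shares. The lower ones were ndr2, a Nodal ligand, with 1.44 FPKM in MZeomesa and 4.90 FPKM in wild-type embryos, and both rows of wnt8a, a Wnt ligand of the ventrolateral margin. The wnt8a rows had 4.48 and 2.60 FPKM in MZeomesa embryos and 19.1 and 14.1 FPKM in wild-type embryos, but they share a span and the table marks both as failed estimates. The Nodal ligand ndr1 had 6.07 FPKM in MZeomesa and 8.85 FPKM in wild-type embryos, and dvr1 (Vg1), a partner of Nodal ligands, had 316 FPKM in MZeomesa and 453 FPKM in wild-type embryos. bmp4, a ventralising signal, was higher, with 4.02 FPKM in MZeomesa and 0.743 FPKM in wild-type embryos. fgf8a, an Fgf ligand of the margin, had 6.98 FPKM in MZeomesa and 4.34 FPKM in wild-type embryos (log2 ratio 0.68).

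Of 10 transcription factors of the margin, where mesoderm and endoderm arise, 0 were at least 2-fold higher and 1 was at least 2-fold lower, with a median log2 ratio of -0.30. That gene was osr1, known from intermediate mesoderm, with 0.388 FPKM in MZeomesa and 2.45 FPKM in wild-type embryos. snai1a, a repressor active in migrating mesoderm, had 56.1 FPKM in MZeomesa and 105.8 FPKM in wild-type embryos (log2 ratio -0.92). Genes of the dorsal side lay on either side of 1. flh, the homeobox gene of the notochord, had 91.1 FPKM in MZeomesa and 60.7 FPKM in wild-type embryos (log2 ratio 0.59), and gsc, an organiser gene, had 23.4 FPKM in MZeomesa and 15.1 FPKM in wild-type embryos (log2 ratio 0.63), whereas lhx1a, another organiser gene, had 3.95 FPKM in MZeomesa and 5.45 FPKM in wild-type embryos (log2 ratio -0.47). For a later stage, the paper cites RT-PCR that found less gsc RNA in MZeomesa embryos, while its own in situ hybridisation found gsc little affected. foxh1 itself had 92.3 FPKM in MZeomesa and 101 FPKM in wild-type embryos.

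Paraxial and presomitic genes, the later setting of tbx16, tbx6 and msgn1, were mostly low, and 5 of 19 rows averaged at least 1 FPKM. Of these, 2 were at least 2-fold higher and 0 at least 2-fold lower in MZeomesa embryos (median log2 ratio 0.42), beside 5.4% and 3.8% of all genes. dlc, a Notch ligand of the segmentation clock that is also made in neural cells, had 7.24 FPKM in MZeomesa and 0.818 FPKM in wild-type embryos (log2 ratio 3.15). hes6, a partner of clock repressors, had 11.9 FPKM in MZeomesa and 5.25 FPKM in wild-type embryos (log2 ratio 1.18). The span of hes6 overlaps that of another gene, so its value is uncertain. her11, a clock gene, had 62.3 FPKM in MZeomesa and 46.7 FPKM in wild-type embryos, and cyp26a1, which breaks down retinoic acid, had 42.2 FPKM in MZeomesa and 46.4 FPKM in wild-type embryos.

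Among 6 axial genes 0 were at least 2-fold higher and 1 was at least 2-fold lower (median log2 ratio 0.19). The lower one was foxa, with 13.3 FPKM in MZeomesa and 34.5 FPKM in wild-type embryos, whereas foxa3, another forkhead gene of axial tissue and endoderm, had 15.8 FPKM in MZeomesa and 8.19 FPKM in wild-type embryos. chd, the Bmp antagonist of the organiser, had 9.19 FPKM in MZeomesa and 11.1 FPKM in wild-type embryos. Of 10 rows of genes known to act downstream of Ntla or Tbx16, 1 (dlc) was at least 2-fold higher. The 2 rows at least 2-fold lower were both of wnt8a, 1 gene whose estimates are both marked as failed. The median log2 ratio was 0.11, and 5 of the 10 rows had a ratio above 1, beside 48.9% of all 14921 genes. These genes therefore did not all share the direction of ntla and tbx16. The endoderm regulators sox32 and gata5 were the 2 of 5 past 2-fold, both lower. Among the others, foxa3 and cxcr4a had ratios above 1 and bon had one below. The minimum mean was reached by sox32 and gata5 through wild-type embryos alone. sox32 had 0.189 FPKM in MZeomesa and 2.69 FPKM in wild-type embryos, and gata5 had 0.557 FPKM in MZeomesa and 2.05 FPKM in wild-type embryos. The 11 ubiquitous genes had log2 ratios from -0.32 (rps18) to 0.64 (actb1) with a median of -0.02 and 0 past 2-fold. The log2 ratio of ntla lay above the range of these genes. That of tbx16 lay inside it through actb1 alone, as the next highest was hprt1 at 0.40.

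**Figure D4:**
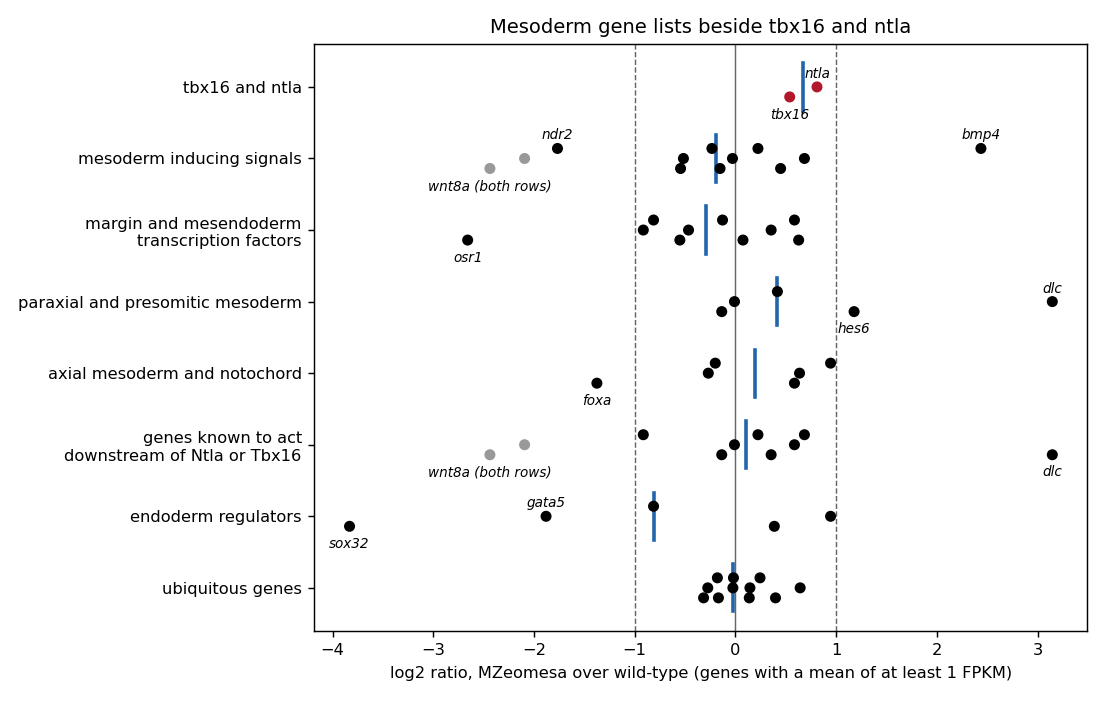
Each point is a gene or table row averaging at least 1 FPKM, placed by its log2 ratio of MZeomesa to wild-type (horizontal axis) in rows by gene list, with list medians as blue bars, dashed lines at 2-fold and grey points for estimates marked as failed. tbx16 and ntla (red) lie at 0.54 and 0.81, inside the spread of most of the mesoderm lists, whose medians run from -0.30 to 0.42.

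The genes of these lists and of the T-box family whose pair of values came closest to that of each abundant member were found by distance on the log2 scale among 96 genes, over the 2 group values alone. For tbx16 they were flh (distance 0.04), cxcr4a (0.28; 95.4 FPKM in MZeomesa and 73.0 FPKM in wild-type embryos), a chemokine receptor of endoderm, and hprt1 (0.51), a ubiquitous gene. The ratio of tbx16 to flh was 0.974 in MZeomesa and 1.01 in wild-type embryos. For ntla they were foxa3 (0.44), foxd3 (0.55; 19.7 FPKM in MZeomesa and 15.4 FPKM in wild-type embryos) and bmp7a (0.60; 14.5 FPKM in MZeomesa and 14.8 FPKM in wild-type embryos). The span of foxd3 overlaps that of another gene. With 2 values, likeness reflects level as much as ratio, as the log2 ratio of -0.03 of bmp7a beside 0.81 for ntla shows.

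Neighbours on the chromosome were the nearest genes averaging at least 1 FPKM whose spans did not overlap the member. Genes of lower level may lie closer. The ratios of these neighbours lay on either side of 1. nudc, 18.5 kb from ntla, had 140.9 FPKM in MZeomesa and 157.5 FPKM in wild-type embryos, and arid1ab, 161 kb to its other side, had 102 FPKM in MZeomesa and 77.9 FPKM in wild-type embryos. klhl22, 7.42 kb from tbx16, had 1.79 FPKM in MZeomesa and 2.36 FPKM in wild-type embryos, and the gene 21.9 kb to its other side, whose span overlaps another gene, had 10.1 FPKM in MZeomesa and 8.40 FPKM in wild-type embryos. ntla lies on the chromosome of eomesa, 29.8 Mb away. Whether the shared chromosome bears on the value of ntla was not tested.

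Markers of other cells also differed between the groups. All 6 enveloping layer genes (krt4, krt5, krt8, krt18, cldne and cyt1) were higher in MZeomesa embryos, 3 of them by at least 2-fold. Of all 14921 genes, 48.9% were higher and 5.4% at least 2-fold higher. The 6 genes summed to 529 FPKM in MZeomesa and 286 FPKM in wild-type embryos. krt18, marked as a failed estimate, is among the 3 and the largest part of both sums, with 268 FPKM in MZeomesa and 120 FPKM in wild-type embryos. cyt1, also among the 3, has a span that overlaps other genes. The yolk syncytial layer genes mxtx1 and mxtx2 were at least 2-fold lower, with 1.47 and 6.23 FPKM in MZeomesa embryos and 17.9 and 73.9 FPKM in wild-type embryos, and the 3 measured genes of that list summed to 7.73 FPKM in MZeomesa and 92.6 FPKM in wild-type embryos. Of 6 maternal and germ plasm genes, buc was at least 2-fold lower, with 42.0 FPKM in MZeomesa and 96.1 FPKM in wild-type embryos, and the list summed to 859 FPKM in MZeomesa and 1061 FPKM in wild-type embryos. Among 10 measured genes of later differentiated cells, elavl3 was the one with a mean above 1 FPKM, at 3.96 FPKM in MZeomesa and 0.728 FPKM in wild-type embryos. The part of these differences in the values of tbx16 and ntla was not tested.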

How the data were processed

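Total RNA was extracted from 2 samples of MZeomesa and 2 of wild-type embryos, the labels give poly(A) RNA as the molecule sequenced, and the reads were single. Per the submitters' processing notes, reads were mapped with TopHat2 2.0.5 and analysed with Cufflinks on Zv9. The authors' deposited table holds 1 FPKM value per gene for each group, with both samples combined, and 0 columns of values per sample; reads mapping to several places were divided by Cufflinks (option -u). It also holds the authors' fold change, test statistic, p-value and q-value for their own comparison, none of which was used. The table's status mark was read only to find estimates marked as failed (84 genes), low data (116) or too much data (1), and, for some low T-box genes, as not tested. Listed 0 values gave no ratio (182 genes averaging at least 1 FPKM).

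Log2 ratios had no pseudocount added, and only genes averaging at least 1 FPKM over both groups could count as past 2-fold. A gene under 1 FPKM in 1 group could reach this mean through the other group alone, which favours genes that differ. sox32, gata5, osr1, tbx5a, bmp4 and dlc, among others, did so. The same rule held for the shares over all genes. Since there is 1 value per group, no test was made. Low FPKM values were searched for steps of whole reads. Of 2576 genes under 0.05 FPKM in both groups, 28 shared the most frequent ratio, which is too few to recover reads for nearly all genes, so depth is unknown and no detection limit is given. A gene is described as overlapping another where both are listed with the same span. Partial overlaps between different listed spans were not searched for. A pair of genes that overlap or share a span may share reads, since the use of strand in counting is not given in the sources used here. The code that counts genes past a fold was tested on simulated data with known folds, which is a check of the code and not of the groups.

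The genes named were the members, eomesa, T-box genes with at least 1 FPKM in either group, genes of the lists past 2-fold or with at least 10 FPKM (up to 10 a list, of which not all are printed), and for tbx16 and ntla the 3 nearest list genes. Other named genes (ndr1, fgf8a, tbx6l, eomesb, lhx1a, the chromosomal neighbours and the markers) were chosen after their values were seen. The members and lists were chosen with earlier results of these data known. Names were matched by gene ID and to RefSeq synonyms (assembly GRCz12tu, names only; 5 of 6 member names). Protein identities and promoter motifs were planned but not analysed here. Alternatives were other minimum levels, folds and pseudocounts, centring, and leaving out genes that share a span or are marked. Python 3.11.15, numpy 2.4.6, pandas 2.3.3 and matplotlib 3.10.9 were used.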

Additional observations from a re-analysis of the deposited data

How the results depend on the processing

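The log2 ratios of tbx16, ntla, msgn1, tbx6 and ntlb kept their direction and stayed within 2-fold under pseudocounts of 0.1 and 1 FPKM and under centring on the median of all genes. They ran from 0.53 to 0.55 for tbx16, 0.75 to 0.82 for ntla, 0.28 to 0.85 for msgn1, -0.48 to -0.07 for tbx6 and 0.03 to 0.97 for ntlb, so that the pseudocount mattered for the low genes.

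Counts depended on the minimum level and the fold. With a mean of at least 0.1 FPKM, no filter or a mean of at least 5 FPKM, 1880, 3143 or 333 genes were past 2-fold higher in MZeomesa embryos (805 as reported) and 1347, 2273 or 202 lower (567). At 1.5-fold or 3-fold, 1813 or 273 were higher and 1559 or 267 lower. For the T-box family, 1 gene was higher with a mean of at least 0.1 FPKM, 2 with no filter and 1 at 1.5-fold (0 as reported), and 1 was lower with a pseudocount of 1 FPKM, 6 with no filter, 1 with a mean of at least 5 FPKM and 1 at 3-fold (3 as reported). For the mesoderm lists, 7, 11 or 1 rows were higher with a mean of at least 0.1 FPKM, no filter or a mean of at least 5 FPKM, and 8 at 1.5-fold (3 as reported), while 9, 12 or 3 were lower under these minimum levels (5 as reported). Leaving out estimates marked as failed, low or too high, an alternative chosen after the data were seen, gave 3 lower, since it removes both wnt8a rows. The other 46 alternative values stayed within the limits set for a move.

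No paired analysis was possible because each group has 1 combined value, and leaving out a replicate could not be run for the same reason. Neither the spread between embryos nor the counting error of any value is known.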

Other observations

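A few genes with a mean under 1 FPKM fell outside the counts and were picked after their values were seen. eve1, a homeobox gene of the ventral margin and tail, had 1.60 FPKM in MZeomesa embryos and 0.392 FPKM in wild-type embryos. her1, a segmentation clock repressor, had 1.47 FPKM in MZeomesa embryos and 0.397 FPKM in wild-type embryos. Among the low T-box genes, tbx5b had 0.193 FPKM in MZeomesa embryos and 0.0563 FPKM in wild-type embryos, a log2 ratio of 1.78, whereas its paralogue tbx5a lay on the other side of 1. tbx6l, tbx2b and tbx18 were below 1 in ratio by more than 2-fold, with log2 ratios of -1.12, -1.12 and -1.41, and tbx21 was above by as much, at 1.36. tbx2b, tbx18 and tbx21 had 0.0594, 0.00739 and 0.0598 FPKM in MZeomesa embryos. In wild-type embryos they had 0.129, 0.0196 and 0.0233 FPKM. They are marked as not tested by the authors, and ratios at such levels say little.

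Near the other members and tbx6l, neighbours were again sought only among genes averaging at least 1 FPKM. The gene 1.32 kb from msgn1 had 312 FPKM in MZeomesa and 233 FPKM in wild-type embryos (log2 ratio 0.42). NIF3L1, 2.99 kb from tbx6 and overlapping another gene, had 3.10 FPKM in MZeomesa and 4.35 FPKM in wild-type embryos, a log2 ratio of -0.49 beside -0.49 for tbx6, and eif3c, 21.2 kb to the other side, had a log2 ratio of 0.06. The gene 3.36 kb from ntlb had a log2 ratio of 0.05 and pde10a, 51.6 kb to the other side, one of 0.44. eral1, 10.3 kb from tbx6l, had a log2 ratio of -0.26, and the gene 25.9 kb to the other side one of 0.93.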
